A study of Mus musculus with 4 samples.

Results

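The 5' UTR is the stretch of an mRNA before its coding sequence. Peaks obtained with an antibody against N6-methyladenosine (m6A), whose annotated feature was exactly 5' UTR, are described here. They were 276 of 15439 control peaks, in 163 genes, and 369 of 15417 Mettl3-knockdown peaks, in 209 genes. The cells of both libraries were embryonic fibroblasts of the mouse that express E1A and HRasV12, a pair of oncogenes. For 6 h before harvest all of them were exposed to 0.2 µg/ml doxorubicin, which damages DNA. The control cells carried control shRNA and the other cells carried shRNA against Mettl3, so both conditions share the oncogenes and the drug. Each condition had 1 m6A-eCLIP library made from purified mRNA and 1 input library made from total RNA, and no untreated cells entered the comparison. In m6A-eCLIP an antibody against m6A is crosslinked to RNA and the bound fragments are sequenced, and a peak is a stretch with more fragments than the input. The design asked which m6A sites depend on Mettl3 after DNA damage. With 1 library per condition no test of the conditions could be made, and every interval below is a 95% interval that covers counting error only and treats peaks as independent although many adjoin. The peaks give no transcript levels, so neither the extent of the knockdown nor the cell type could be checked from them. Mettl3 itself had 0 peaks in 5' UTRs in both libraries.

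Mettl3 is the catalytic subunit of the enzyme complex that methylates adenosines inside mRNAs, mostly in a short sequence context with the core GGAC. Most m6A in mammalian mRNAs lies in long internal exons and around stop codons, and the smaller amount in 5' UTRs has been linked to translation that does not need the cap-binding complex. The first transcribed base, when it is an adenosine, can carry a related mark, m6Am, which is written by another enzyme, Pcif1, and is bound by the same antibodies.

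Short stretches of the first transcribed bases under peaks are printed because knockdown peaks at gene starts were often without a control peak. They were chosen among the starts that hold GGAC under a peak or, as in Pip4p1, across adjoining peaks, so its presence in each is no finding. They are read 5' to 3' from RefSeq on build GRCm38.p6 (mm10), with each GGAC in capitals. Rbbp6 (chr7:122970575-122970604, plus strand) and Insyn1 (chr9:58488623-58488652, plus strand) had peaks there in both libraries. Kcnj4 (chr15:79505196-79505222, minus strand), Mt1 (chr8:94179109-94179138, plus strand), Ep300 (chr15:81586222-81586251, plus strand) and Pip4p1 (chr14:50930828-50930849, minus strand) had them in the knockdown library alone.
Rbbp6: GGACccctgaccccgcggggtcattcGGAC
Insyn1: ggagccgactgccgggctGGACtgagcggt
Kcnj4: gaccctcctcGGACcttacgccccggg
Mt1: tgcgctcggctctgccaaGGACgcggggcg
Ep300: aGGACagcgccgaggaggaagaagctgatg
Pip4p1: GGACccggtagcgacggcggcg

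The 5' UTR held a small share of the peaks, and the share was larger in the knockdown library. In the control it came to 1.79% (1.58 to 2.01), and in the knockdown to 2.39% (2.16 to 2.65). Weighted by length the shares were closer, at 1.73% and 1.90%. Peaks of at least 20 bases numbered 256 in the control and 292 in the knockdown. Counted over genes, 3.42% of the control genes with any peak (2.92 to 3.98) and 4.50% of the knockdown genes (3.92 to 5.13) had a peak in the 5' UTR. Adjoining peaks joined into 178 control and 233 knockdown stretches. A single 5' UTR peak was listed for 65.0% of the control genes and 64.1% of the knockdown genes. Of all these genes, 111 had a 5' UTR peak in both libraries, 52 in the control alone and 98 in the knockdown alone. Many of the latter had a peak of another feature, such as coding sequence, in the other library. This held for 30 of the 52 genes (57.7%) and 57 of the 98 genes (58.2%). The same counts were not made for all genes with a peak or for genes with peaks in other regions. Whether they are particular to the 5' UTR was therefore not tested.

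The height of a peak is the authors' log2 fold over input, and every listed peak exceeds 3. The median was 3.64 in the control (3.55 to 3.73) and 3.68 in the knockdown (3.58 to 3.78), so these intervals overlap. Coding sequence had medians of 3.66 and 3.81 and the 3' UTR 3.76 and 3.86. The strength of evidence differed more between regions than the height. The authors' −log10 p stood at its upper limit of 400 in 40.9% of control and 42.0% of knockdown 5' UTR peaks, against 58.7% and 59.6% in coding sequence. Knockdown 5' UTR peaks were also shorter, with a median length of 89 bases (73 to 99) against 118 (101 to 129) in the control. The direction was the same, by a smaller margin, in the other regions. Knockdown and control medians were 123 (121 to 125) and 131 (129 to 133) in coding sequence and 89 (82 to 94) and 94 (91 to 97) in the 3' UTR.

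The most prominent signal came from a few genes with many adjoining peaks. St3gal2, a sialyltransferase, had the largest fold among the 5' UTR peaks of both libraries. Its control stretch (chr8:110957181-110957625, plus strand, 445 bases) held 9 peaks with log2 folds from 3.73 to 5.89. Its knockdown stretch (chr8:110957194-110957615, 422 bases) held 20 peaks from 3.30 to 6.62. The 2 stretches lie on top of each other, and the gene had no peak of any other feature in either library. Rbbp6, a ubiquitin ligase that binds RB1 and p53, had 8 control peaks of up to 5.56 and 11 knockdown peaks from 4.45 to 6.45. Both of its stretches (215 and 191 bases) run over the start of the gene, where the 30 bases printed above hold GGAC at each end. Ddx6, an RNA helicase of mRNA decay and storage, had 4 control peaks from 4.42 to 5.62 and 2 knockdown peaks of 4.37 and 5.48.

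**Figure D1:**
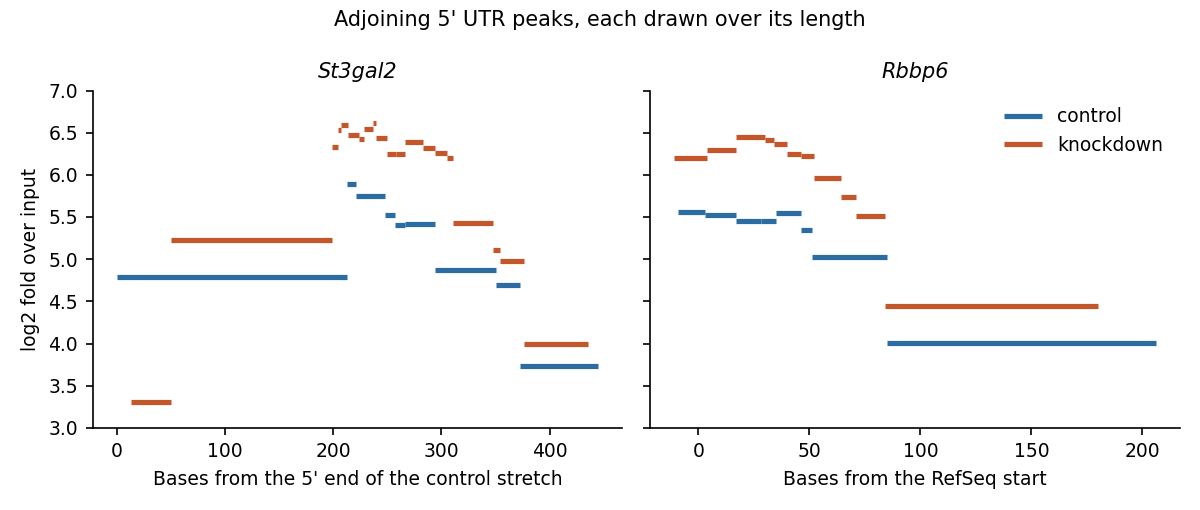
Adjoining 5' UTR peaks of St3gal2 and Rbbp6, each drawn as a bar over its length in bases (x axis) at its log2 fold over input (y axis), for the control and the knockdown library. The highest knockdown bars, at 6.62 and 6.45, lie above the highest control bars, at 5.89 and 5.56.

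Other genes with many 5' UTR peaks had them in both libraries. Slmap had 8 control peaks (3.14 to 4.66) and 6 knockdown peaks (3.46 to 3.96). Gpat4, an enzyme of glycerolipid synthesis, had 7 in each library (3.46 to 4.19 and 3.30 to 4.50), and the palmitoyltransferase Zdhhc5 had 7 and 6. Nr2f2, an orphan nuclear receptor, had 6 control peaks (3.61 to 4.70) and 7 knockdown peaks (3.52 to 4.54). Its relative Nr2f6 had 2 control peaks (3.04 and 3.16) and 6 knockdown peaks (3.18 to 3.74), 4 of which no control peak overlapped. High folds were also found in genes with fewer peaks. Aars, the alanyl-tRNA synthetase, had control peaks of 5.38, 4.18 and 3.18, Hand2, a transcription factor, had control peaks of 5.13 and 3.78, and Gas1, a growth arrest gene, had knockdown peaks of 5.94 and 5.45. Gas1 had no control 5' UTR peak, but control peaks annotated to its coding sequence overlapped both of its knockdown peaks.

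The central comparison asked how far the libraries agreed on where the 5' UTR peaks lie, with a peak called matched when a peak of the other library overlapped it by at least 1 base on the same strand. Knockdown 5' UTR peaks were matched less often than knockdown peaks in coding sequence and the 3' UTR, while control 5' UTR peaks were matched less often than control peaks in coding sequence by a smaller margin. Of the 276 control peaks, 221 were matched, or 80.1% (74.9 to 84.6), beside 81.1% of all control peaks. Of the 369 knockdown peaks, 246 were matched, or 66.7% (61.6 to 71.5), beside 83.7% of all knockdown peaks. The knockdown shares in coding sequence, 84.5% (83.7 to 85.2), and in the 3' UTR, 89.8% (88.9 to 90.7), lay outside the interval of the 5' UTR. The control shares were 84.9% (84.1 to 85.6) in coding sequence, just above the interval of the 5' UTR, and 80.3% in the 3' UTR, within it. Counted in bases, the libraries hardly differed: peaks of the other library covered 70.02% of the control and 68.9% of the knockdown 5' UTR peak length. The same shares were 77.2% and 77.4% in coding sequence and 70.7% and 81.3% in the 3' UTR. Most matches were with another 5' UTR peak, namely 206 of the 221 and 222 of the 246.

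The shares were then split at the limit of −log10 p and at a log2 fold of 4, which leaves strength free to vary within each class. Among knockdown peaks at the limit of −log10 p, 132 of 155 in the 5' UTR were matched, or 85.2% (78.6 to 90.4), against 94.1% (93.4 to 94.7) in coding sequence. Below that limit the shares were 53.3% (46.3 to 60.1) and 70.3% (68.8 to 71.8). With a log2 fold of at least 4 they were 87.9% (80.8 to 93.1) and 93.2%, and with a smaller fold 55.9% (49.5 to 62.2) and 78.4%. In the control, 108 of 113 peaks at the limit were matched, or 95.6% (90.0 to 98.5), against 93.1% in coding sequence. In the other control classes the 5' UTR was the lower: 69.3% (61.6 to 76.3) against 73.2% below the limit, 92.9% (85.1 to 97.3) against 95.9% with a fold of at least 4, and 74.5% (67.7 to 80.5) against 80.2% with a smaller fold. All 4 control coding sequence shares lay within the 5' UTR interval.

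**Figure D2:**
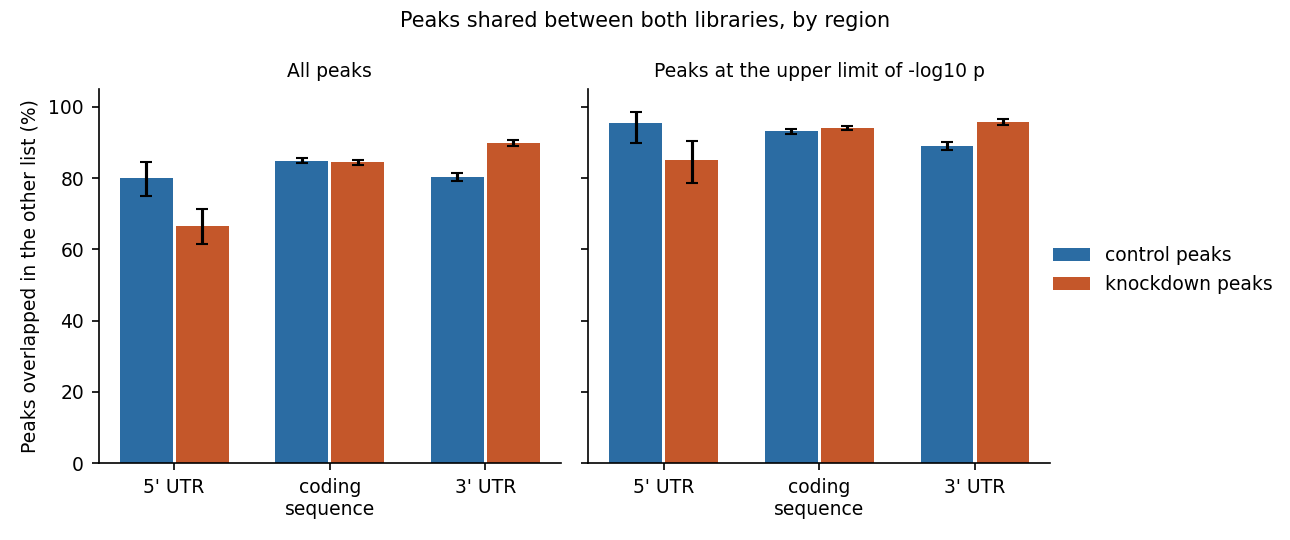
Share of peaks overlapped by a peak of the other library (y axis, percent) for 5' UTR, coding sequence and 3' UTR, over all peaks (left) and peaks at the upper limit of −log10 p (right). Bars are control and knockdown peaks and error bars are exact 95% intervals of counting error; the knockdown 5' UTR bar, at 66.7%, is the lowest on the left.

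Unmatched peaks were weaker in the median, although some stood at the limit of −log10 p. In the knockdown their median log2 fold was 3.32 against 3.92 of matched peaks, their median length 55 against 107.5 bases, and 23 of 123 stood at the limit of −log10 p. In the control the median folds were 3.31 and 3.73, and 5 of 55 stood at the limit. Unmatched control peaks were not shorter, with a median length of 135 bases (100 to 149) against 112 (97 to 126) of matched ones. Many folds were repeated values: 62.0% of control and 57.7% of knockdown 5' UTR peaks had a fold equal, to 6 decimals, to that of a peak of another gene, against 46.0% and 43.0% in coding sequence. Knockdown peaks with such a fold were matched in 55.9% of cases and the others in 81.4%. The part of read depth or transcript level in this was not tested.

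Among unmatched knockdown peaks the largest folds were those of Hoxc4, a homeobox factor (4.84, −log10 p 7.23), and Dkk2, a secreted Wnt regulator (4.79, 6.94). Homer1, a synaptic scaffold, and Pgap2 had the same value of 4.44 and the same −log10 p of 5.24. Wnt5a, a Wnt ligand, reached 4.37, with a −log10 p of at most 4.96. Ywhab, a 14-3-3 protein, had 4.33 (−log10 p 42.1) on a peak of 5 bases. Cic, a repressor acting below RAS signalling, had 4 knockdown peaks of up to 4.16 and no control 5' UTR peak, but 10 control peaks of other features. In the control the largest were Frg2f1 (−log10 p 4.17) and Ibtk (at least 24.7), both at 4.23. Better supported were the unmatched peaks at the limit of −log10 p, which were picked out after their values were seen. They included 3 knockdown peaks of Tlnrd1 (4.03, 3.58 and 3.32). Brd2, a bromodomain protein that binds acetylated histones, had 2 (3.82 and 3.33) and no control peak of any feature. On the control side they were Zfp740 (3.90), Jun (3.41), Zdhhc5 (3.22), Zfp664 (3.07) and Tgfb1 (3.01).

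Position within the gene was compared next. A RefSeq start of the gene could be set beside 226 control and 281 knockdown peaks, with distances along the genome that include introns. Knockdown peaks lay closer to the start, with a median of 506 bases against 777.5. Of knockdown peaks that began 1 to 500 bases after the start, 57 of 100 were matched (interval 46.7% to 66.9%), and of those beginning more than 1000 bases after it, 84.3%. The control shares were 80.3% (68.2 to 89.4) and 84.9% (76.0 to 91.5). For peaks beginning 501 to 1000 bases after the start the libraries were close, at 73.5% (58.9 to 85.1) in the control and 69.1% (55.2 to 80.9) in the knockdown. The near and far knockdown peaks also differed in strength: 35.0% and 43.8% stood at the limit of −log10 p, against 42.6% and 37.6% in the control. Peaks 0 to 99 bases from the start numbered 22 in the control, of which 19 were matched, and 48 in the knockdown, of which 22 were matched.

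**Figure D3:**
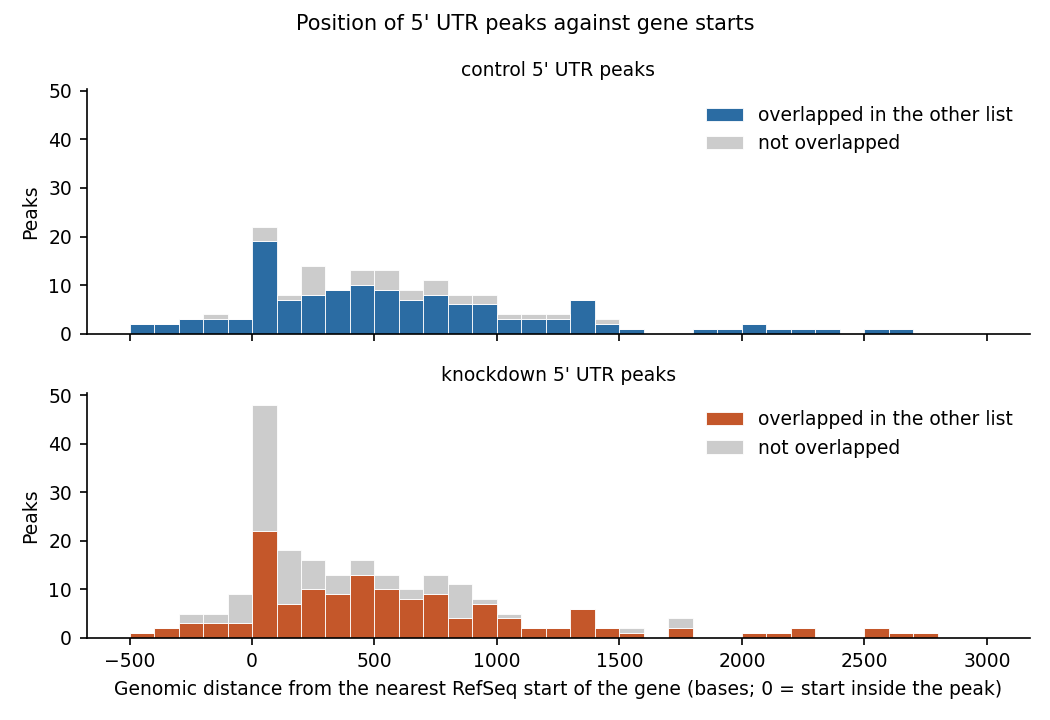
Number of 5' UTR peaks (y axis) by genomic distance from the nearest RefSeq start of the gene (x axis, bases, bins of 100), in the control (top) and the knockdown (bottom), with matched peaks in colour and unmatched ones in grey. The 161 control and 219 knockdown peaks between −500 and 3000 bases are drawn, and the tallest knockdown bar, next to the start, holds 48 peaks of which 22 were matched.

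The first 50 transcribed bases were then taken by themselves, a choice made after the values were seen. They were overlapped by 16 control peaks in 11 genes, or 5.80% of the control 5' UTR peaks (3.35 to 9.24), beside 0.194% of all control peaks. In the knockdown they were overlapped by 35 peaks in 28 genes, or 9.49% (6.70 to 12.9), beside 0.363% of all knockdown peaks. Rbbp6 gave 6 and 7 of these. Among peaks at the limit of −log10 p the order was the opposite, with 9.73% of 113 control and 6.45% of 155 knockdown 5' UTR peaks at a start. Every Rbbp6 peak stood at that limit, so this 1 gene made up most of the peaks behind both shares. No interval was computed for them. Of all control 5' UTR peaks at a start 15 of 16 were matched. Of the knockdown ones it was 15 of 35, or 42.9% (26.3 to 60.6), against 69.2% (63.9 to 74.1) of knockdown 5' UTR peaks away from the start. Without Rbbp6 it was 9 of 10 control peaks and 8 of 28 knockdown peaks. Peaks of other features at starts were matched in 9 of 14 cases in the control (interval 35.1% to 87.2%) and 10 of 21 in the knockdown (25.7% to 70.2%). These intervals are wide and overlap, so no difference between the libraries is read from these peaks.

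The 20 unmatched knockdown peaks at starts lay in 19 genes of mixed function, 11 of which had a control peak elsewhere in the gene. Mt1, a metallothionein that binds zinc, had a log2 fold of 3.20 (−log10 p 55.3). Ep300, an acetyltransferase of histones and p53, had 3.15 (51.5). Kcnj4, a potassium channel, had 3.71 (11.2), and Pip4p1, a lipid phosphatase, had 3.50 and 3.01. Bmp6 and Stc2, both secreted factors, had 3.13 and 3.68. The folds ran from 3.01 to 4.44 with a median of 3.50, and none of the 20 stood at the limit of −log10 p. A fold equal to that of another gene was found for 19 of them, and 7 were under 20 bases long. The only unmatched control peak at a start was that of Irf9, an interferon response factor (3.55, −log10 p 12.2).

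Among starts with a peak in both libraries, Rbbp6, Insyn1, Hnrnpdl and Patz1 had peaks at the limit of −log10 p in each. Insyn1 had 3.81 in the control and 4.53 in the knockdown, and Hnrnpdl, an RNA-binding protein, 4.24 and 4.39. Patz1, a zinc finger factor, had 3.41 in the knockdown and a lower fold in the control. The letters GGAC (transcribed strand only) occurred in the first 50 bases of 18.9% of the 32851 RefSeq starts, of 5 of 11 starts under control peaks and of 10 of 29 under knockdown peaks, where Mcrip1 has 2 starts. Of the starts under unmatched knockdown peaks, 7 of 20 held it. These counts are small and describe letters, not methylated sites. For the genes printed above, the first base at the RefSeq start was G in Rbbp6, Insyn1, Ep300 and Pip4p1. It was A in Kcnj4 and T in Mt1. Whether any peak at a start reflects m6A or m6Am was not tested.

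Where both libraries had a 5' UTR peak, the knockdown fold was usually the higher one. Over 301 overlapping pairs in 107 genes the control minus knockdown difference had a median of −0.24 (−0.33 to −0.17) on the log2 scale. The knockdown was higher in 194 pairs (64.5%) and, by gene means, in 68 of 107 genes (63.6%), where the median was −0.19 (−0.36 to −0.05). Without St3gal2 and Rbbp6, which have many pairs, the median over pairs was −0.16. Coding sequence had a median of −0.14 (−0.15 to −0.13) over 10852 pairs and the 3' UTR −0.01 (−0.03 to 0.00) over 5288. Each fold is relative to the input of its own library, so a difference in scaling between the libraries cannot be told apart from a difference in m6A.

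**Figure D4:**
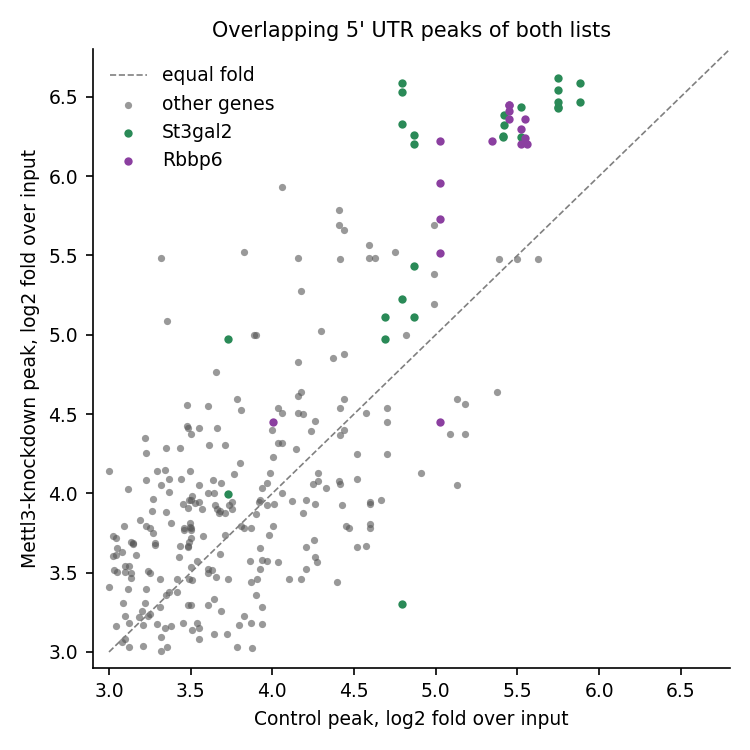
Log2 fold over input of overlapping 5' UTR peaks in the control (x axis) and the knockdown library (y axis), 1 point per pair, with St3gal2 and Rbbp6 in colour and other genes in grey. The dashed line marks equal folds, and 194 of the 301 pairs lie above it.

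Single genes spread widely around that median. The values named next are the extreme pair of each gene, and several genes had other pairs. Snx33, a sorting nexin, had 3.32 in the control and 5.49 in the knockdown, on peaks that share only 2 bases, while the same knockdown peak shared 135 bases with a control peak of 4.63. The protocadherins Pcdh19 (3.36 and 5.08) and Pcdh17 (3.83 and 5.52) and B430305J03Rik (4.06 and 5.93) were likewise higher in the knockdown, although 1 Pcdh17 pair, sharing 4 bases, differed by 0.60 the other way. Higher in the control were Hand2 (5.13 and 4.05), Foxf2, a forkhead factor (4.40 and 3.44), Rnf220, a ubiquitin ligase (4.58 and 3.67), and Zfyve1 (4.52 and 3.66). Pairs of the opposite sign were found in Hand2 (−0.81), Rnf220 (−0.45 and −0.34) and Zfyve1 (−0.18). St3gal2 stood at both ends, with pairs from −1.80 to 1.49, and its 20 knockdown peaks were set against 9 control peaks.

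The authors' own list of peaks higher in the control than after the knockdown held few 5' UTR sites. In the authors' deposited table they were 6 of 1851 peaks, or 0.324% (0.119 to 0.704). By the authors' deposited table, Tnrc18 had a log2 difference of 1.43 (p = 0.0239) and Kdm2a, a histone demethylase, 1.19 (p = 0.00648). Sqle, squalene epoxidase of sterol synthesis, had 0.88 in the authors' deposited table (p = 0.0477). For the other sites the authors' deposited table gave 0.65 for Zfp664 (p = 0.0275), 0.61 for Slc35a4 (p = 0.0147) and 0.54 for Ptp4a3, a phosphatase (p = 0.0128). Only Sqle and Zfp664 overlapped 5' UTR peaks over input: Sqle had a control peak of 4.60 and knockdown peaks of 3.78, 3.95 and 3.81 there. Seen from the lists over input, 3 control 5' UTR peaks (1.09%, 0.225 to 3.14) were overlapped by that list, beside 2.8% of all control peaks. For knockdown peaks it was 3 (0.813%) beside 1.09%.

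Genes with 5' UTR peaks were also looked up in 17 gene lists. Over all genes with any peak, 3.42% in the control and 4.50% in the knockdown had one in the 5' UTR, and at such shares lists of this size hold few or none, so nothing is read from the single counts. Of 45 immediate early genes, which respond within minutes to growth factors and stress, 35 had a control peak of any feature and 2 of these (5.71%) had one in the 5' UTR. In the knockdown it was 3 of 34 (8.82%). Each fold given for these lists is the largest of the gene in that library, so control and knockdown values need not come from overlapping peaks. Fosb had 3.53 and 3.94, Jun 3.41 and 3.69, and Egr1 3.14 in the knockdown alone. The Jun peak of 3.41 was unmatched. Of 102 developmental transcription factors, of which 56 and 61 had any peak, 4 and 7 had one in the 5' UTR, among them Foxf2, Meis2 (3.82 and 3.07), Dlx1 (3.55 and 3.15) and Sox4 (3.36 and 3.10), with Sox11 (3.89) and Hoxd9 (3.46) in the knockdown alone. No control peak overlapped the knockdown peak of Meis2. A control peak annotated to coding sequence overlapped 1 of the 2 Hoxd9 peaks. The TGF-beta and BMP list had 2 and 2 of 38 genes (18 and 19 with any peak), with the inhibin subunit Inhbb at 3.50 and 4.37, the inhibitory Smad7 at 3.73 in the knockdown, where a control coding sequence peak overlapped it, and Tgfb1 at 3.01 in the control. The Wnt list had 1 and 2 of 50 (26 and 25 with any peak), Lef1 (3.34 and 3.30) and Wnt5a. The control Lef1 peak overlapped another knockdown peak of the gene, at 3.15. Of 55 RAS and MAP kinase genes (36 and 34 with any peak) 0 and 3 had one, the kinases Mapk3 (3.41), Araf (3.15) and Map3k11 (3.06). These 3 knockdown peaks were unmatched and 5, 45 and 45 bases long. Of 89 chromatin modifiers (53 and 54 with any peak) 1 and 2 had one, the remodeller Chd8 (3.72, control, overlapped by a knockdown coding sequence peak) and Brd2 and Ep300 (knockdown). Ep300 was also the 1 gene of 29 p53 regulators, in the knockdown. Eif4e, the cap-binding factor, was the 1 of 31 translation initiation factors (3.17), also in the knockdown. Both peaks were unmatched. The Notch list (30 genes) had Maml3 (3.20) and the Hippo list (27 genes) the kinase Lats2 (4.66), both in the control alone. A knockdown peak annotated to coding sequence overlapped that of Lats2. No 5' UTR peak was listed in either library for p53 targets (46 genes), DNA damage signalling and repair (54), heat shock and integrated stress response (37), the m6A and m6Am machinery (28), ribosomal proteins (34), matrix and fibroblast genes (50) or markers of other cell types (22). Of these, the ribosomal protein genes and the markers of other cell types had 0 genes with any control peak and 1 gene each with any knockdown peak.

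Genes with a 5' UTR peak often had no other peak. All peaks of the gene were in the 5' UTR for 57 of 163 control genes (35.0%) and 75 of 209 knockdown genes (35.9%). A coding sequence peak was present in 55.2% and 54.1% of them, against 66.2% and 68.3% of all genes with a peak. A 3' UTR peak was present in 21.5% and 25.4%, against 40.9% and 35.9%. Genes of that background could enter through such a peak alone, while the genes described here entered through a 5' UTR peak. A lower share is thus partly fixed in advance, and nothing is read from these contrasts. Of the joined stretches, 34 of 178 in the control and 32 of 233 in the knockdown ran on into coding sequence.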

How the data were processed

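Mouse fibroblast m6A-eCLIP libraries, 1 per condition, were analysed from the authors' deposited peak lists. The submitters' processing notes name UMI-tools 0.5.1, cutadapt 2.7 and build mm10. Which aligner, caller of peaks and test the authors used is not given in the sources used here. Per the file headers, each peak of the deposited lists over input has a log2 fold and a −log10 p-value, with 400 as the upper limit. The deposited comparison list gives the authors' log2 difference and p-value. All are the authors' own values and only describe, rank or filter peaks. Read depth was not analysed here, so its effect on precision is unknown.

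Peaks annotated exactly as 5' UTR were taken and matched by same-strand overlap of at least 1 base. Shares carry exact Clopper-Pearson intervals and medians order-statistic intervals (95%). All 262 Ensembl identifiers of the members were in the name table. Starts and sequences came from the RefSeq promoter table (GRCm38.p6). The overlap and interval code was tested on simulated data. Python 3.11.15, numpy 2.4.6, pandas 2.3.3, scipy 1.17.1 and matplotlib 3.10.9 were used.

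Members, the 17 gene lists and the rule for named genes were chosen with earlier results of these data known. Named genes were, per library, the 10 with the largest fold, the 5 with most peaks and the 10 with the largest unmatched fold. To these came the 5 largest and 5 smallest differences, genes of the comparison list, up to 6 members a gene list, and Mettl3. Genes at RefSeq starts and unmatched peaks at the limit of −log10 p were added after their values were seen. Alternatives covered overlap, thresholds, merging, weighting and the window at the start.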

Additional observations from a re-analysis of the deposited data

How the results depend on the processing

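No paired analysis was possible because each condition had 1 library, and read depth, not analysed here, was not tested as a limit. Of 76 alternatives 40 left a value within its interval, or a count within 1.5 times, and 36 moved it. Values are given as control and knockdown. Peak numbers were 178 and 233 merged, 84 and 124 at a log2 fold of at least 4, and 113 and 155 at the limit of −log10 p. With at least 20 bases they were 256 and 292. Matched shares were 74.6% and 60.2% against 5' UTR peaks alone, 74.2% and 58.8% merged, 92.9% and 87.9% at a fold of at least 4, 95.6% and 85.2% at the limit, and 68.1% and 53.1% over genes. Weighted by length they were 70.02% and 68.9%, so the libraries then hardly differed. Without repeated folds, an alternative chosen after seeing the data, they were 94.3% and 81.4%. The 5' UTR share of all peaks was 1.31% and 1.75% at the limit and 2.03% and 2.74% merged. It was 1.66% and 1.94% at a fold of at least 4, and 1.73% and 1.90% by length. The median knockdown fold of matched peaks was 3.92. The alternatives on gene starts were also chosen after seeing the data. Peaks at starts were 2.17% and 4.88% for the first 10 bases and 9.73% and 6.45% at the limit, 10.7% in the control at a fold of at least 4 and 13.0% in the knockdown for the first 100 bases. So the order of the libraries at starts was the other way at the limit of −log10 p, where most of the peaks at starts were those of Rbbp6. Unmatched peaks at starts were 3 in the control for the first 100 bases, and in the knockdown 12 for the first 10 bases and 13 with at least 20 bases. The paired median was −0.16 without St3gal2 and Rbbp6, also chosen after seeing the data. No pair had identical ends, so that alternative gave no value.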
